A study of Mus musculus with 8 samples.

Results

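Messenger RNA was measured by RNA sequencing in cultures of mouse spermatogonial stem cells (SSC culture), and the report follows 10 genes for chemokines and cytokines through 4 culture conditions: Ccl2, Ccl5, Ccl7, Cxcl1, Cxcl5, Cxcl12, Cx3cl1, Il6, Lif and Csf1. The genes were found by symbol among the 55421 genes of the count table, each symbol named a single row, and all 10 passed the filter on low counts that left 20477 genes for testing. Germ cells had been isolated from C57BL/6XDBA/2 F1 hybrid pups aged 6 days and were grown in every group on a layer of commercial irradiated mouse embryonic fibroblasts (MEF) from outbred CF1 mice, so each library can hold RNA from both cell sources. For 48 h they were kept in complete SSC medium with the vehicle (Veh), in complete medium with 100 nM retinoic acid (RA), in nutrient restriction medium made of 10% complete medium and 90% Earle's Balanced Salt Solution (NR, which the labels also call EBSS), or in nutrient restriction medium with 100 nM RA (NRRA). The complete medium contained serum, the growth factors GDNF and FGF2, and amino acids, all of which the nutrient restriction medium held at the diluted level. Each group had 2 libraries of 19261333 to 30023585 counts; the study described them as independent biological replicates. The 10 genes took between 0.177% and 0.288% of all counts in a library.

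Chemokines are small secreted proteins that draw leukocytes and stem or progenitor cells along a gradient, and they are named by the spacing of their first cysteines (CC, CXC or CX3C). Many of them are encoded in gene clusters and are switched on by NF-kB, the transcription factor that acts downstream of interleukin-1, TNF and Toll-like receptors. Il6 and Lif act through the shared receptor chain gp130 and the transcription factor STAT3, and Csf1 is the growth factor of macrophages. In the testis Csf1, Cxcl12 and Lif have been studied as signals from somatic cells to spermatogonia, and fibroblast feeder layers are known sources of several of these factors.

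The promoters of 4 members are shown because these genes gave the responses on which the results turn: Cxcl1 and Il6 were lower with RA under nutrient restriction, Csf1 had a response to RA that differed between the media in the other direction, and Lif fell with nutrient restriction. Each sequence runs 5′ to 3′ on the gene's strand from 250 bases before to 50 bases after the start of transcription and was taken from RefSeq (build GRCm38.p6). Capitals mark a match to the NF-kB consensus in Cxcl1, Il6 and Csf1 and the AP-1 motif in Lif.
Cxcl1 (chr5:90890995-90891294, plus strand): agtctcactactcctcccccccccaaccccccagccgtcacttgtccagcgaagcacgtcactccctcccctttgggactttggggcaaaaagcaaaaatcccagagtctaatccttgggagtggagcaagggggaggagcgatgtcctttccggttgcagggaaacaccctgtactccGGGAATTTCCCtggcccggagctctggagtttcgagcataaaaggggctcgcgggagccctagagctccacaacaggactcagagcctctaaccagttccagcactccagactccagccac
Il6 (chr5:30012864-30013163, plus strand): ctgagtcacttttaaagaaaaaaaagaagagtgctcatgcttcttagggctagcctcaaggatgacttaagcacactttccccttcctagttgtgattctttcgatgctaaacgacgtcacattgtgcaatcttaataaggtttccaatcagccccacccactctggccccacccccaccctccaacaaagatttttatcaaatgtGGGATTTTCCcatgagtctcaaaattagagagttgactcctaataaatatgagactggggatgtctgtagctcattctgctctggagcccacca
Csf1 (chr3:107760420-107760719, minus strand): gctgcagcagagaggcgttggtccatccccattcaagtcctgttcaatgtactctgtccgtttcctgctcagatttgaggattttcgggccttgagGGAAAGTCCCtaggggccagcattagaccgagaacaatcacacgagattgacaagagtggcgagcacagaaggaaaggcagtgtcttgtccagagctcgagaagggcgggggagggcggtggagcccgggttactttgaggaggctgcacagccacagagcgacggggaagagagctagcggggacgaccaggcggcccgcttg
Lif (chr11:4257318-4257617, plus strand): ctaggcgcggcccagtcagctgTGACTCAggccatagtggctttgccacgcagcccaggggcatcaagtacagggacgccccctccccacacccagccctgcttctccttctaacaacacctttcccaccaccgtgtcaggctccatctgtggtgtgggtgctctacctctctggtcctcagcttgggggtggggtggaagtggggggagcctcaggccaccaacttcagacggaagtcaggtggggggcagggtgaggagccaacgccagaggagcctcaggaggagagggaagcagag
RefSeq promoters were given for 6 of the 10 members (these 4, Cxcl12 and Cx3cl1). Searched on both strands, the NF-kB consensus was in 3 of the 6 and in 4.51% of the 32851 promoters of the table. In Cxcl1 matches on the opposite strands overlapped from base -71 to -61, in Il6 the match spanned -44 to -35, and in Csf1 it lay on the minus strand from -154 to -145. The AP-1 motif TGANTCA was in Lif, from -228 to -222, and in Il6, from -249 to -243, and in 7.81% of all promoters. The C/EBP motif TTGCNNAA was in Il6, from -128 to -121, and in 10.8% of all promoters. The DR5 motif of retinoic acid receptors, a direct repeat, was in none of the 6 windows and in 0.00913% of all promoters. These matches describe letters of the windows and are not measured binding sites.

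**Figure D1:**
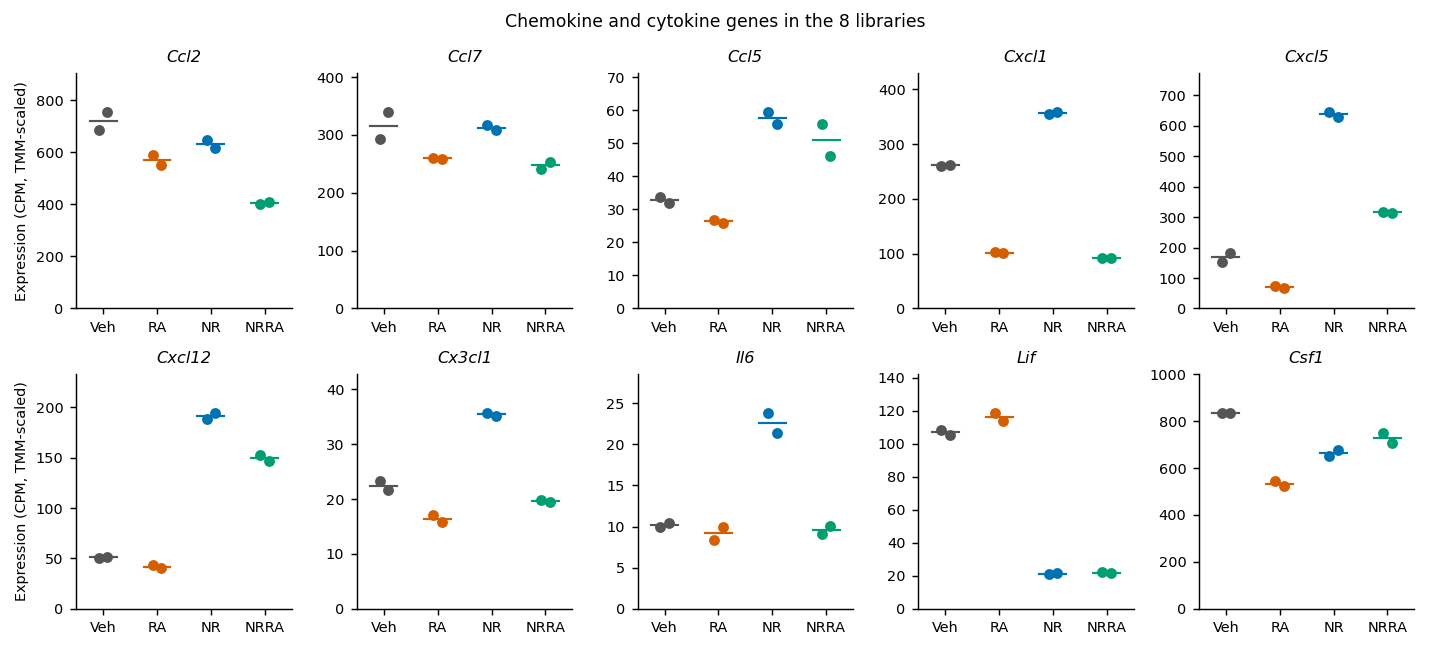
Expression of the 10 genes in CPM (counts scaled to library size, with TMM; each axis starts at 0) in the 2 libraries of Veh, RA, NR and NRRA. Points are libraries and bars are group means; Cxcl1 is low in both groups with RA, Lif is low in both groups with nutrient restriction, and Il6 is raised in the 2 NR libraries, at 21.3 and 23.8 CPM.

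Per kilobase of exon, Ccl2 was the highest of the 10 in every group. The exon length counts every base that is exon in any annotated transcript, so the order of genes also depends on this choice. In Veh the order of mean levels was Ccl2 (632 CPM per kb), Ccl7 (395 CPM per kb), Csf1 (158 CPM per kb), Cxcl1 (139 CPM per kb), Cxcl5 (90.4 CPM per kb), Ccl5 (34.3 CPM per kb), Lif (24.6 CPM per kb), Cxcl12 (6.26 CPM per kb), Cx3cl1 (5.71 CPM per kb) and Il6 (4.21 CPM per kb), and no neighbours in this order overlapped between the 2 libraries. In RA the order was the same, but the libraries of Ccl5 and Lif overlapped, and so did those of Cx3cl1 and Il6. In NR, Cxcl5 moved up to the third place at 342 CPM per kb, Cxcl12 to the seventh at 23.4 CPM per kb, and Lif was the lowest at 4.90 CPM per kb, with overlapping levels of Il6 and Cx3cl1. In NRRA, Ccl2 was at 355 CPM per kb and Ccl7 at 310 CPM per kb. There Ccl5 and Cxcl1 could not be ordered, nor could Lif and Cx3cl1.

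RA in complete medium lowered the neutrophil chemokines Cxcl1 and Cxcl5 by more than 2-fold, and 6 further members were lower by less than that. A gene was called when its adjusted p (edgeR's quasi-likelihood test, Benjamini-Hochberg over all 20477 genes) was under 0.05 and its fold at least 2, and only called genes are said to have risen or fallen. Of the 10 members 0 rose and 2 fell between Veh and RA, where 7.49% of all genes were called, 4.74% higher and 2.75% lower. By adjusted p alone, 8 of 10 were lower and 0 higher, beside 23.4% of all genes lower and 19.8% higher. The median log2 change of the members was -0.33, against -0.02 for all genes tested. A median of this size was not particular to the members. It was -0.34 for 24 fibroblast markers, -0.31 for 20 other chemokines, -0.29 for 11 germ cell markers and -0.24 for 26 other cytokines. With every library scaled to its fibroblast marker total (described below), Csf1, Cxcl1 and Cxcl5 were lower and Lif was higher by adjusted p. Cxcl5 was then at -0.93, short of 2-fold, and over all genes 10102 were higher and 1161 lower by adjusted p.

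Nutrient restriction in the absence of RA gave a mixed picture, in which Cxcl5, Cxcl12 and Il6 rose and Lif fell. Between Veh and NR 8.29% of all genes were called, 5.33% higher and 2.96% lower, and 3 of the 10 members rose and 1 fell. By adjusted p alone, 6 members were higher, where 21.7% of all genes were, and 3 were lower, where 22.2% of all genes were. The median log2 change of the members was 0.55, against 0.01 for all genes. It was 0.65 for the fibroblast markers and 0.63 for the other chemokines, but 0.25 for the germ cell markers and 0.06 for the other cytokines. With the fibroblast marker total, Cxcl5, Cxcl12 and Il6 were higher and Ccl2, Ccl7, Cxcl1, Lif and Csf1 lower by adjusted p. Over all genes 791 were then higher and 14231 lower.

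RA added under nutrient restriction lowered 3 members by at least 2-fold: Cxcl1, Cxcl5 and Il6. Between NR and NRRA 8.70% of all genes were called, 4.56% higher and 4.14% lower. By adjusted p alone 8 of the 10 members were lower, beside 22.1% of all genes, and 1 was higher, beside 21.3%. RA vs Veh and NRRA vs NR share no library, and 7 members were lower by adjusted p in both (Ccl2, Ccl5, Ccl7, Cxcl1, Cxcl5, Cxcl12 and Cx3cl1), where 15.3% of all genes were. With the fibroblast marker total described below as the scale, Cxcl1 and Cxcl5 were lower in both and Lif was higher in both, and without NRRA replicate 2 Ccl5 in NRRA vs NR was -0.05 (edgeR adjusted p = 0.68). With TMM 0 members were higher in both, where 12.6% of all genes were and 2.31% by at least 2-fold. Both Cxcl1 and Cxcl5 fell in both media, where 1.89% of all genes did.

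Nutrient restriction in the presence of RA raised Cxcl5 and Cxcl12 and lowered Lif. Between RA and NRRA 8.29% of all genes were called, with 4.61% higher and 3.68% lower. By adjusted p alone 5 members were higher and 3 lower, beside 20.9% and 19.4% of all genes. NR vs Veh and NRRA vs RA share no library either, and Cxcl5 and Cxcl12 rose in both, where 2.64% of all genes did, and Lif fell in both, where 1.86% did. By adjusted p alone 4 members were higher in both (Ccl5, Cxcl5, Cxcl12 and Cx3cl1), where 13.1% of all genes were, and Ccl2 and Lif were lower in both, where 13.8% were. Of these, Cx3cl1 in NRRA vs RA did not pass without NRRA replicate 1 (0.25) or RA replicate 2 (0.20), and Ccl2 in NR vs Veh did not pass without NR replicate 2 (-0.14). With the fibroblast marker total 2 members were higher in both (Cxcl5 and Cxcl12) and 5 lower (Ccl2, Ccl7, Cxcl1, Lif and Csf1). Between Veh and NRRA 15.9% of all genes were called, 9.91% higher and 6.02% lower, and among the members Cxcl12 rose and Cxcl1 and Lif fell. By adjusted p alone 3 members were higher, beside 30.1% of all genes, and 6 were lower, beside 28.7%; of these 6, Cx3cl1 did not pass when Veh replicate 1 or any one of the NR or NRRA libraries was left out (edgeR adjusted p = 0.053 to 0.24).

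**Figure D2:**
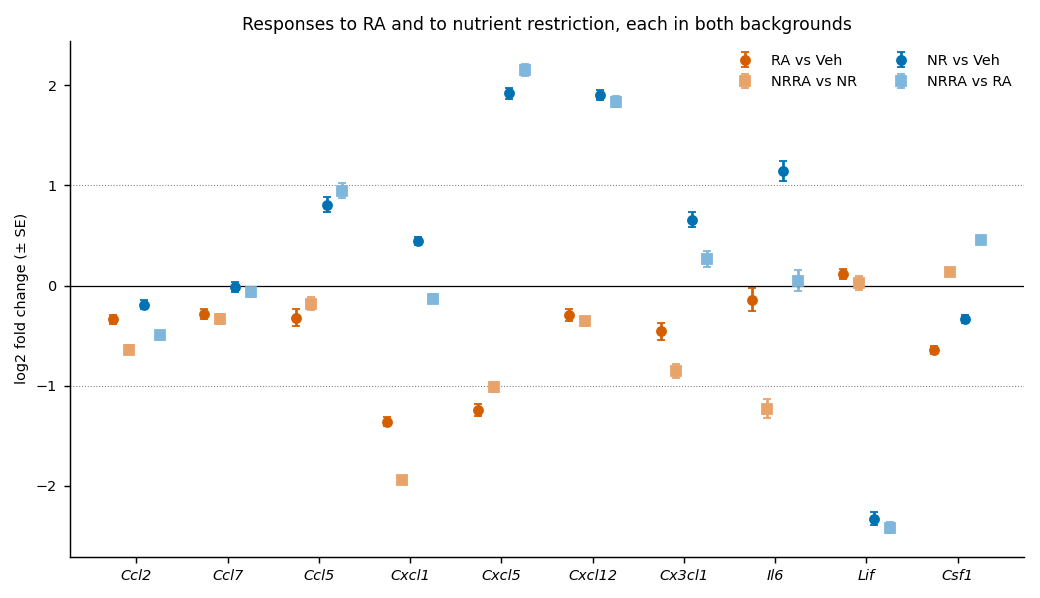
Log2 fold changes of the 10 genes with their standard errors (edgeR, 2 libraries a group), for RA in complete medium (RA vs Veh) and under nutrient restriction (NRRA vs NR) and for nutrient restriction without RA (NR vs Veh) and with it (NRRA vs RA). Dotted lines mark a 2-fold difference; Cxcl1 lies at -1.36 and -1.94 for RA in the 2 media, Lif at -2.33 and -2.42 for nutrient restriction, and Csf1 and Il6 have RA responses that differ between media. Scaled to the fibroblast marker total instead of TMM, all points of RA vs Veh and NRRA vs NR move up by 0.32 and 0.33 and all points of NR vs Veh and NRRA vs RA down by 0.69, which carries Ccl5, Ccl7, Cxcl12 and Il6 (RA vs Veh), Cxcl1 and Cx3cl1 (NR vs Veh), Ccl5 (NRRA vs NR) and Il6, Csf1 and Cx3cl1 (NRRA vs RA) across 0.

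The libraries held RNA of more than 1 cell type, and the marker lists moved with the conditions. The summed level of 24 fibroblast markers was 27145 and 27371 CPM in Veh, 21120 and 22671 CPM in RA, 43301 and 44925 CPM in NR and 34751 and 35679 CPM in NRRA. It was thus highest in NR and lowest in RA, and most of the list moved with it, but not every marker. By adjusted p 18 of the 24 were higher and 4 lower between Veh and NR (median log2 change 0.65), beside 21.7% and 22.2% of all genes. Between Veh and RA 3 were higher and 17 lower (median -0.34), beside 19.8% and 23.4%. Between NR and NRRA 2 were higher and 20 lower (median -0.30), beside 21.3% and 22.1%. Between Veh and NR 7 markers rose, among them Lox, Postn and Col3a1 (log2 changes of 1.77, 1.68 and 1.54), and Twist2 fell by 1.48, where 5.33% of all genes rose and 2.96% fell. S100a4, by which the study named feeder cells in its single-cell data, was at 0.465 to 3.22 CPM in all libraries. Gm42674 on the same strand overlaps 51.7% of its exon bases, so its counts depend on how shared reads were assigned, which was not tested. In bulk RNA, fewer cells of a type and less RNA per cell cannot be told apart. The 11 germ cell markers summed to 1302 to 1706 CPM, with the germ cell helicase Ddx4 at 131 to 191 CPM, so germ cells were represented as labelled. The 14 macrophage markers summed to 330 and 335 CPM in Veh, 272 and 295 CPM in RA, 389 and 397 CPM in NR and 369 and 385 CPM in NRRA, with Adgre1 at 46.4 to 76.3 CPM and Cd163 at 0 in 6 libraries. The part of these lists in the results was not tested.

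As one reference for the feeder layer, every library was also scaled to its fibroblast marker total in place of TMM, the scaling to a typical gene used elsewhere. This moved the median log2 change of all genes from -0.02 to 0.30 in RA vs Veh, from 0.01 to -0.69 in NR vs Veh, from 0.03 to -0.34 in NRRA vs Veh, from 0.01 to 0.33 in NRRA vs NR and from 0.02 to -0.67 in NRRA vs RA. Relative to that median no member moved by more than 0.0039 in any comparison. This follows from the scaling, which shifts all genes of a comparison alike, and is not a finding about the members. Directions below are relative to the typical gene, and each that turns under the fibroblast total is named with it.

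**Figure D3:**
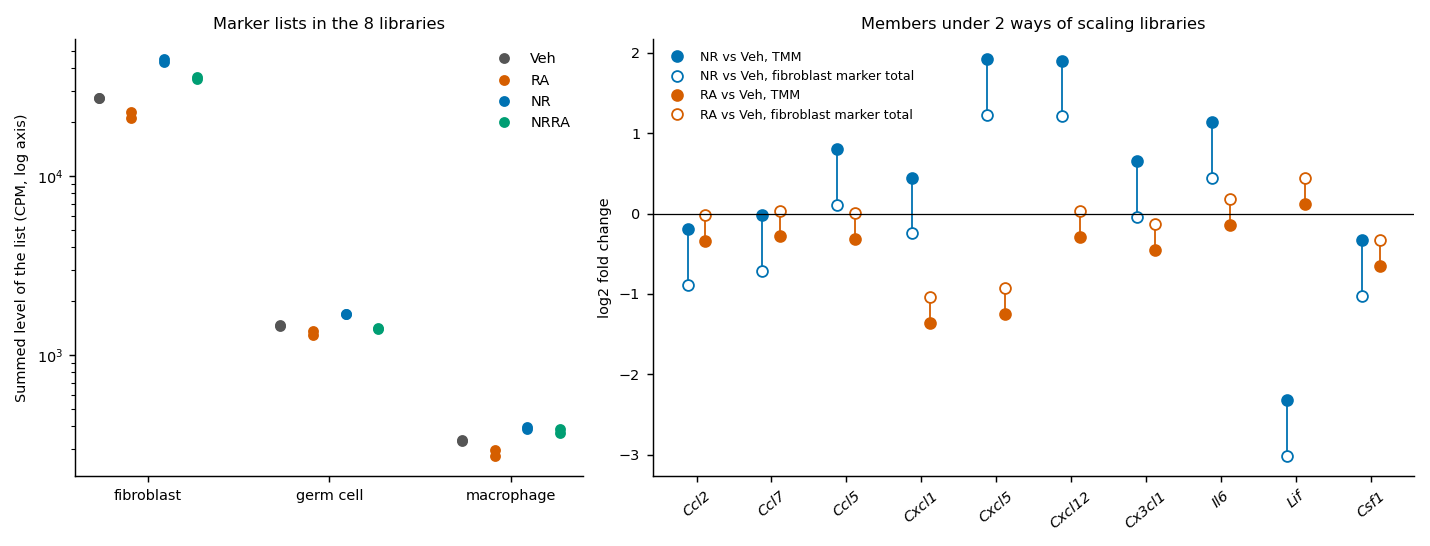
Left, summed level of the fibroblast, germ cell and macrophage marker lists in each library (CPM, log axis). Right, log2 fold changes of the members with TMM (filled) and with the fibroblast marker total (open), in NR vs Veh and RA vs Veh; the open points of NR vs Veh lie lower and those of RA vs Veh higher, and Cxcl1 and Cx3cl1 (NR vs Veh) and Ccl5, Ccl7, Cxcl12 and Il6 (RA vs Veh) change sides of 0.

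Among the CXC chemokines, Cxcl1, a ligand of the neutrophil receptor Cxcr2, lies on chromosome 5 (mm10, 90891241-90893115, plus strand, ENSMUSG00000029380) and carries the doubled NF-kB match shown above. Its level was 260 and 262 CPM in Veh, 102 CPM in both RA libraries, 356 and 358 CPM in NR, and 93.0 and 92.9 CPM in NRRA. The 4 RA-treated libraries were all below the 4 others, and no groups overlapped. RA lowered it 2.56-fold in complete medium (log2 change -1.36 ± 0.04 SE, edgeR adjusted p = 8.9e-19) and 3.84-fold under nutrient restriction (log2 change -1.94 ± 0.04 SE, edgeR adjusted p = 1.9e-22). The response under nutrient restriction was larger by 0.58 on the log2 scale (interaction -0.58 ± 0.06 SE, edgeR adjusted p = 8.1e-08). Without RA, Cxcl1 was 1.36-fold higher in NR than in Veh (log2 difference 0.45 ± 0.04 SE, edgeR adjusted p = 8.2e-10), and -0.25 with the fibroblast total, while with RA it was slightly lower under nutrient restriction (log2 difference -0.13 ± 0.04 SE, edgeR adjusted p = 0.018), which did not pass without any one of the RA or NRRA libraries (edgeR adjusted p = 0.063 to 0.097) and was -0.82 with the fibroblast total.

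Cxcl5, another Cxcr2 ligand, lies upstream in the same cluster (chromosome 5, 90759360-90761624, plus strand, ENSMUSG00000029371). It stood at 154 and 182 CPM in Veh, 73.9 and 68.4 CPM in RA, 644 and 631 CPM in NR, and 316 and 314 CPM in NRRA. The NR libraries were the highest, the RA libraries the lowest, and NRRA lay between Veh and NR. Nutrient restriction raised Cxcl5 3.79-fold without RA (log2 change 1.92 ± 0.05 SE, edgeR adjusted p = 2.3e-20) and 4.45-fold with RA (2.15 ± 0.06 SE, edgeR adjusted p = 5.5e-21). RA lowered it 2.37-fold in complete medium (log2 change -1.25 ± 0.06 SE, edgeR adjusted p = 3.4e-15) and 2.02-fold under nutrient restriction (-1.02 ± 0.05 SE, edgeR adjusted p = 8.5e-15), and with the fibroblast total both were under 2-fold, at -0.93 and -0.69. The difference between the 2 RA responses was 0.23 ± 0.08 SE on the log2 scale and missed the threshold (edgeR adjusted p = 0.0505), which it passed without Veh replicate 1 (0.31) or RA replicate 1 (0.28). Cxcl5 was 1.87-fold higher in NRRA than in Veh (log2 difference 0.91 ± 0.05 SE, edgeR adjusted p = 9.3e-14), short of 2-fold except without Veh replicate 2 (1.03).

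Cxcl12, the ligand of Cxcr4 and of the scavenger receptor Ackr3, is a homeostatic chemokine on chromosome 6 (117168535-117181367, plus strand, ENSMUSG00000061353). It was at 50.5 and 51.9 CPM in Veh, 43.4 and 40.5 CPM in RA, 188 and 195 CPM in NR, and 152 and 147 CPM in NRRA. All 4 libraries under nutrient restriction were above all 4 in complete medium. The increase was 3.74-fold without RA (log2 change 1.90 ± 0.05 SE, edgeR adjusted p = 1.5e-20) and 3.57-fold with RA (1.84 ± 0.05 SE, edgeR adjusted p = 2.8e-20). RA was followed by lower levels in both media (log2 differences of -0.29 ± 0.06 and -0.36 ± 0.05 SE, edgeR adjusted p = 2.4e-04 and 5.0e-07), which with the fibroblast total were 0.03 in complete medium and -0.03 under nutrient restriction. The interaction was -0.07 ± 0.08 SE (edgeR adjusted p = 0.63).

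Of the CC chemokines, Ccl2 and Ccl7, both ligands of the monocyte receptor Ccr2, are neighbours on the plus strand of chromosome 11 (82035571-82037453, ENSMUSG00000035385, and 82045712-82047525, ENSMUSG00000035373), with 8259 bases between them. Ccl2 stood at 686 and 753 CPM in Veh, 588 and 552 CPM in RA, 645 and 615 CPM in NR, and 399 and 409 CPM in NRRA, so that the NRRA libraries were below all others and no groups overlapped. It was lower with RA in both media, and the difference was larger under nutrient restriction (log2 differences of -0.34 ± 0.04 and -0.64 ± 0.04 SE, interaction -0.30 ± 0.06 SE, edgeR adjusted p = 0.0012). With the fibroblast total the value in complete medium was -0.02 and no longer passed (edgeR adjusted p = 0.77), and that under nutrient restriction was -0.32. Against Veh, NRRA was 1.78-fold lower (log2 difference -0.83 ± 0.04 SE, edgeR adjusted p = 9.0e-15), and with the fibroblast total NRRA was past 2-fold below both Veh (-1.20) and RA (-1.18).

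With TMM and all 8 libraries, Ccl7 showed no difference between the media that passed the test. Its level was 293 and 339 CPM in Veh, 261 and 259 CPM in RA, 317 and 308 CPM in NR, and 242 and 254 CPM in NRRA. The NR libraries lay inside the range of Veh, and the 4 RA-treated libraries were below the others. RA was followed by log2 differences of -0.28 ± 0.05 SE in complete medium and -0.33 ± 0.05 SE under nutrient restriction (edgeR adjusted p = 5.4e-05 and 4.6e-06), which were 0.04 and -0.01 with the fibroblast total. NR differed from Veh by -0.02 ± 0.05 SE on the log2 scale (edgeR adjusted p = 0.82), a value that passed without Veh replicate 1 (-0.10) and, in the other direction, without Veh replicate 2 (0.11), and was 0.02 without NR replicate 2. NRRA differed from RA by -0.07 ± 0.05 SE (edgeR adjusted p = 0.32), a value that passed without either Veh library (-0.09). The interaction of Ccl7 passed without Veh replicate 2 (-0.20). With the fibroblast total the difference between the media was -0.71 in NR vs Veh and -0.75 in NRRA vs RA.

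Ccl5, which recruits T cells and monocytes, lies on the minus strand of chromosome 11 (83525778-83530518, ENSMUSG00000035042) in a second cluster. Its levels were 33.8 and 32.0 CPM in Veh, 26.9 and 26.0 CPM in RA, 59.4 and 56.0 CPM in NR, and 55.8 and 46.2 CPM in NRRA. Every library under nutrient restriction was above every library in complete medium. Nutrient restriction was followed by a 1.75-fold higher level without RA and a 1.93-fold higher level with RA (log2 differences of 0.81 ± 0.08 and 0.95 ± 0.08 SE, edgeR adjusted p = 1.7e-09 and 6.4e-11), neither past 2-fold, except the second without NRRA replicate 2 (1.08). With the fibroblast total the 2 values were 0.11, which did not pass (edgeR adjusted p = 0.21), and 0.26. The differences with RA were -0.32 ± 0.08 SE in complete medium (edgeR adjusted p = 0.0028), 0.002 with the fibroblast total, and -0.18 ± 0.07 SE under nutrient restriction (edgeR adjusted p = 0.037), 0.15 with the fibroblast total. The second rests on single libraries, since it ranged from -0.32 to -0.05 when 1 library was left out and did not pass without NR replicate 1, NRRA replicate 2 or either RA library (edgeR adjusted p = 0.052 to 0.68).

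Cx3cl1, or fractalkine, is made as a membrane-bound ligand of Cx3cr1 and can be shed from the cell surface. The gene lies on the plus strand of chromosome 8 (94772009-94782427, ENSMUSG00000031778), between Ccl22 and Ccl17, both of which were below 0.35 CPM in every library. Cx3cl1 was at 23.3 and 21.6 CPM in Veh, 17.1 and 15.7 CPM in RA, 35.7 and 35.1 CPM in NR, and 19.9 and 19.5 CPM in NRRA. The NR libraries stood above all others, and the NRRA libraries lay between RA and Veh. NR was 1.58-fold above Veh (log2 difference 0.66 ± 0.07 SE, edgeR adjusted p = 3.9e-08), and -0.04 with the fibroblast total. The log2 difference with RA was -0.46 ± 0.08 SE in complete medium and -0.85 ± 0.07 SE under nutrient restriction (edgeR adjusted p = 5.6e-05 and 1.7e-10), and with the fibroblast total the first was -0.13 and no longer passed (edgeR adjusted p = 0.23). These 2 responses differed by -0.39 ± 0.11 SE (edgeR adjusted p = 0.015), a difference that did not pass without RA replicate 1 or NRRA replicate 2 (edgeR adjusted p = 0.079 and 0.069). NRRA was above RA by 0.27 ± 0.08 SE on the log2 scale (edgeR adjusted p = 0.0081), and -0.43 with the fibroblast total. With TMM this difference did not pass without NRRA replicate 1 (0.25) or RA replicate 2 (0.20).

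Ccl2, Ccl7, Ccl5, Cxcl1 and Cxcl5 sit in 3 chemokine clusters whose genes did not move as blocks. Next to Ccl2 and Ccl7, Ccl11 (eotaxin, which draws eosinophils) fell with RA and rose with nutrient restriction (log2 changes of -1.32 and 1.54, edgeR adjusted p = 2.2e-13 and 1.2e-16). The same cluster holds Ccl12, which fell with nutrient restriction (-1.60, edgeR adjusted p = 2.6e-07). In the chromosome 5 cluster, nutrient restriction raised Cxcl5 (1.92), whereas Cxcl3 fell (-1.23, edgeR adjusted p = 6.6e-12) and Cxcl2, the nearest chemokine gene to Cxcl1, was lower (-0.81, edgeR adjusted p = 1.9e-08). RA lowered Cxcl1, Cxcl5 and Cxcl2 (-1.03, edgeR adjusted p = 4.7e-10), while Ppbp, between Cxcl5 and Cxcl1, rose (1.73, edgeR adjusted p = 3.2e-10). Beside Ccl5, Ccl3 and Ccl4 were higher with nutrient restriction (0.54 and 0.82) and Ccl6 was lower (-0.85), and all 3 passed the adjusted p, but the difference of Ccl3 is within the shift of 0.69 that the fibroblast total makes and turns with it.

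**Figure D4:**
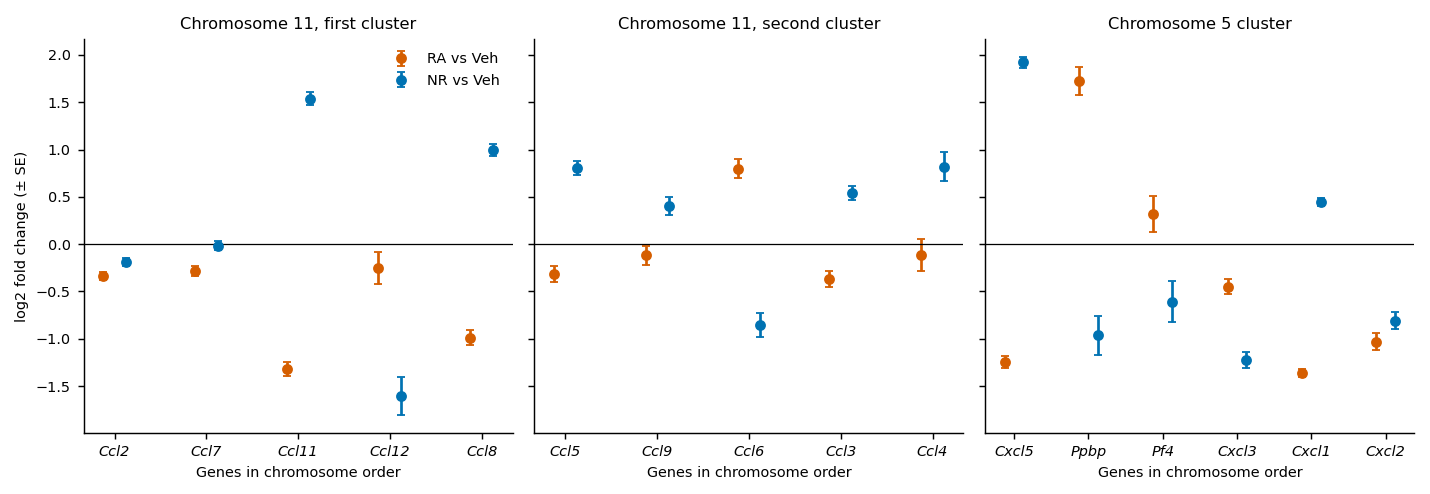
Log2 fold changes with standard errors (edgeR, TMM) of the chemokine genes of 3 clusters, in chromosome order at equal spacing, for RA vs Veh and NR vs Veh; Cxcl15, between Cxcl3 and Cxcl1 and under 1 CPM in every library, is left out. For NR vs Veh, Ccl11 lies at 1.54 and Ccl12 at -1.60, and Cxcl5 at 1.92 and Cxcl3 at -1.23; with the fibroblast marker total every NR vs Veh point would lie lower by 0.69 and every RA vs Veh point higher by 0.32, so that points within that distance of 0, such as Cxcl1 in NR vs Veh, change sides.

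Among the cytokines, Il6 (chromosome 5, 30013114-30019981, plus strand, ENSMUSG00000025746), an inflammatory ligand of the gp130 family, had the lowest counts of the 10, at 165 to 562 per library. Its level was 10.0 and 10.4 CPM in Veh, 8.41 and 9.92 CPM in RA, 23.8 and 21.3 CPM in NR, and 9.11 and 10.0 CPM in NRRA. Only the NR libraries stood apart, and NRRA overlapped with both Veh and RA. Il6 rose 2.20-fold with nutrient restriction (log2 change 1.14 ± 0.10 SE, edgeR adjusted p = 5.6e-10), which was 0.45 with the fibroblast total, and in NRRA it fell 2.35-fold from NR (-1.23 ± 0.09 SE, edgeR adjusted p = 3.9e-11), which was -0.90 with the fibroblast total. RA in complete medium gave -0.14 ± 0.12 SE (edgeR adjusted p = 0.36), 0.18 with the fibroblast total, and NRRA differed from Veh by -0.09 ± 0.11 SE (edgeR adjusted p = 0.51). The RA response under nutrient restriction minus that in complete medium was -1.09 ± 0.15 SE on the log2 scale (edgeR adjusted p = 8.0e-06), and Il6 was the single member called in this interaction, in which 2.24% of all genes were called, 0.786% with a positive and 1.46% with a negative value. Without RA replicate 2 the interaction was -0.95 (edgeR adjusted p = 0.0013) and no longer reached 1.

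Lif, the leukemia inhibitory factor, also signals through gp130, and its gene (chromosome 11, 4257557-4272514, plus strand, ENSMUSG00000034394) lies next to that of oncostatin M. It was measured at 109 and 105 CPM in Veh, 119 and 114 CPM in RA, 20.96 and 21.7 CPM in NR, and 22.0 and 21.6 CPM in NRRA. All 4 libraries under nutrient restriction were far below all 4 in complete medium, and NR and NRRA overlapped. Lif fell 5.01-fold without RA (log2 change -2.33 ± 0.06 SE, edgeR adjusted p = 4.6e-21) and 5.33-fold with RA (-2.42 ± 0.06 SE, edgeR adjusted p = 4.6e-22), and with the fibroblast total the 2 values were -3.02 and -3.10. RA gave values of 0.12 ± 0.05 SE in complete medium (edgeR adjusted p = 0.057) and 0.03 ± 0.07 SE under nutrient restriction (edgeR adjusted p = 0.77), which did not pass with TMM. With the fibroblast total they were 0.44 and 0.36 and both passed (edgeR adjusted p = 6.6e-08 and 1.6e-04), and the first passed with TMM without Veh replicate 1 or either NR library (edgeR adjusted p = 0.0095 to 0.036). Without RA, Lif and Il6 thus moved in opposite directions with nutrient restriction. With RA, Il6 gave 0.05 (edgeR adjusted p = 0.76), and -0.64 with the fibroblast total. With TMM, Lif was the only member that fell with nutrient restriction. With the fibroblast total Csf1 also fell in NR vs Veh (-1.03) and Ccl2 in NRRA vs RA (-1.18).

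Csf1 encodes the macrophage colony-stimulating factor and has 12 exon blocks on the minus strand of chromosome 3 (107741048-107760469, ENSMUSG00000014599). It stood at 836 and 834 CPM in Veh, 545 and 522 CPM in RA, 653 and 676 CPM in NR, and 749 and 709 CPM in NRRA. No groups overlapped, and the order from the lowest was RA, NR, NRRA and Veh. RA in complete medium was followed by a 1.57-fold lower level (log2 difference -0.65 ± 0.04 SE, edgeR adjusted p = 4.9e-13), whereas under nutrient restriction it was followed by a 1.10-fold higher one (0.13 ± 0.04 SE, edgeR adjusted p = 0.0063), which did not pass without NR replicate 1 or NRRA replicate 1 (edgeR adjusted p = 0.18 and 0.16). The difference between these responses, 0.78 ± 0.06 SE on the log2 scale (edgeR adjusted p = 9.1e-11), was the only one among the 10 that passed the adjusted p and was positive, beside 6.37% of all genes. NR was 1.26-fold below Veh (-0.33 ± 0.04 SE, edgeR adjusted p = 9.7e-08), which was -1.03, past 2-fold, with the fibroblast total. With nutrient restriction in the presence of RA the log2 difference was 0.45 ± 0.04 SE (edgeR adjusted p = 3.1e-10), and -0.24 with the fibroblast total.

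The response to RA differed between the media for 5 of the 10 members by adjusted p, where 13.0% of all genes did. Cxcl1, Il6, Cx3cl1 and Ccl2 had a more negative response under nutrient restriction, where 6.58% of all genes passed in that direction, and Csf1 a more positive one. For Ccl5, Ccl7, Cxcl5, Cxcl12 and Lif the interaction was between -0.09 and 0.23 and did not pass. Scaled to the fibroblast total, no member's interaction moved by more than 0.0034 relative to the median of all genes, which again follows from the scaling.

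The genes whose levels followed a member most closely were taken from 16649 genes with a mean of at least 1 CPM by Pearson's r of log2 CPM over the 8 libraries, which fall into 4 groups of 2, so that r describes mainly the 4 group levels. Lif was followed by Mmp10, a matrix metalloproteinase (r = 0.999), and by Lipg and Bdkrb2 (both r = 0.998). The patterns closest to Cxcl12 were Adamts5 (r = 0.999), an aggrecan-cleaving protease, Abi3bp and Plxdc2 (both r = 0.997). Cxcl5 was closest to Bicc1 (r = 0.999), the collagen gene Col12a1 and Fam114a1 (both r = 0.998), and Cxcl1 to Nav3 (r = 0.997), Asphd2 and Rragd (both r = 0.996). The closest genes to Ccl5 were BE692007, Plaat3 and the immunoproteasome subunit Psmb8 (all r = 0.989). Those of Ccl2 were Synj2, Nrd1 and Ppp2r5a (r from 0.991 to 0.996), those of Ccl7 Crispld1, Tfg and Rps27a (r from 0.982 to 0.993), and those of Cx3cl1 Galnt10, Dram1 and Dvl3 (r from 0.994 to 0.995). Il6 had Gm16191, Neurog3 and Alb (r from 0.988 to 0.992). These were low, with means of 3.33, 4.21 and 5.29 CPM in NR and no more than 1.30 CPM in any other group. Their r thus describes mainly the raised level in NR. Csf1 had the loosest neighbours, Fam78a, Bmp7 and Serpinb9b (r from 0.975 to 0.986).

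The receptors of the members were in part near the detection limit. Of 15 receptor genes 11 were tested. The others, Ccr2, Ccr3, Cxcr1 and Cxcr2, which bind Ccl2, Ccl7, Cxcl1 and Cxcl5, were below 0.35 CPM in every library, and Ccr1, Ackr1, Ackr2 and Cx3cr1 did not exceed 1.78 CPM. Between Veh and RA 0 of the 11 rose and 1 fell, and between Veh and NR 1 rose and 2 fell, where 7.49% and 8.29% of all genes were called.

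The Cxcl12 receptor Cxcr4 was at 9.16 and 8.75 CPM in Veh, 3.72 and 2.91 CPM in RA, 4.14 and 3.38 CPM in NR, and 1.93 and 1.83 CPM in NRRA. It fell with RA and with nutrient restriction (log2 changes of -1.46 and -1.26, edgeR adjusted p = 1.8e-08 and 1.1e-07) and was lowest in NRRA (-2.25 from Veh, edgeR adjusted p = 5.1e-12). Cxcr4 and its ligand thus went in opposite directions with nutrient restriction. Ackr3, the second Cxcl12 receptor, was higher in NRRA than in Veh (0.88, edgeR adjusted p = 1.2e-11). The gp130 chain Il6st was at 324 and 343 CPM in Veh, 235 and 230 CPM in RA, 763 and 790 CPM in NR, and 589 and 591 CPM in NRRA, and rose with nutrient restriction (1.22, edgeR adjusted p = 6.6e-19). The Lif receptor Lifr was higher in NR (0.88, edgeR adjusted p = 1.3e-11), while Lif itself fell. The Il6 receptor chain Il6ra fell with RA under nutrient restriction (-1.01, edgeR adjusted p = 5.4e-10), as did Il6. The shift of 0.33 under the fibroblast total takes Il6ra under 2-fold, and Il6 was then at -0.90. The Csf1 receptor Csf1r was between 20.4 and 26.0 CPM in all libraries, slightly lower in RA than in Veh (-0.20, edgeR adjusted p = 0.041, within the shift of 0.32 under the fibroblast total) and at 0.08 between Veh and NR (edgeR adjusted p = 0.40).

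**Figure D5:**
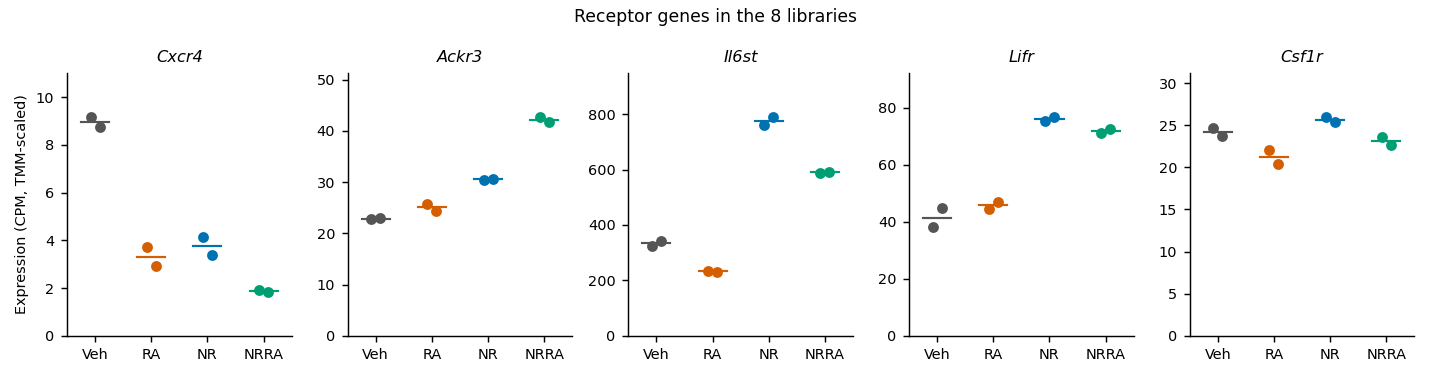
Expression (CPM, scaled by TMM; axes start at 0) of 5 receptor genes in the 2 libraries of each group, with group means as bars. Cxcr4 is highest in Veh, at 8.75 and 9.16 CPM, Ackr3 is highest in NRRA, Il6st and Lifr are higher in NR and NRRA than in Veh and RA, and Csf1r lies between 20.4 and 26.0 CPM.

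Pathway genes around the members are given by list. Of 32 NF-kB pathway genes 0 rose and 0 fell between Veh and RA, with 18 lower and 7 higher by adjusted p, beside 23.4% and 19.8% of all genes (median log2 change -0.22). Between Veh and NR 3 of them rose (Tlr3, the inhibitor Tnfaip3 and the interleukin-1 receptor Il1r1, with log2 changes of 1.16, 1.07 and 1.01) and Ptgs2 fell (-1.48), with a median of 0.17, where 5.33% of all genes rose and 2.96% fell. Of these 32 genes 20 were lower by adjusted p between NR and NRRA, beside 22.1% of all genes, and Tlr2 and Il1r1 fell (-1.44 and -1.04), with a median of -0.24. Each of these 3 medians is within the shift of all genes under the fibroblast total and turns with it. The shift also takes the rises of Tlr3, Tnfaip3 and Il1r1 and the fall of Il1r1 under 2-fold. Of 22 genes of the gp130 and STAT3 pathway 5 rose and 0 fell with nutrient restriction, where 5.33% of all genes rose and 2.96% fell, among them Il6st (1.22), the oncostatin M receptor Osmr (1.15) and the kinase Jak2 (1.10). A shift by 0.69, as under the fibroblast total, takes these 3 values under 2-fold. In the same list, RA under nutrient restriction was followed by a fall of 3 genes, the feedback inhibitor Socs3 (-1.21), Bcl6 (-1.07) and Timp1 (-1.01), where 4.14% of all genes fell. The shift of 0.33 under the fibroblast total takes these values under 2-fold as well. RA in complete medium was followed by a rise of 1, Fgl2 (1.75), where 4.74% of all genes rose. Of 12 genes for shedding and trimming of such ligands 1 rose with RA, the chemokine-trimming peptidase Dpp4 (2.46, from 0.198 and 0.261 CPM to 1.33 and 1.25 CPM), where 4.74% of all genes rose. Between Veh and NR 0 of the 12 were called, where 8.29% of all genes were. By adjusted p 1 was higher and 6 were lower there, beside 21.7% and 22.2% of all genes.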

How the data were processed

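RNA was extracted from 8 cultures, and poly(A) libraries were sequenced by the authors. The deposited values are raw counts per gene; the submitters' processing notes name bcl2fastq, STAR 2.6.1c, featureCounts 1.6.4 and mm10, while the annotation release and strand setting are not given in the sources used here. Library kits differ between the sources. Counts were fitted with edgeR 4.0.16 in R 4.3.3 (TMM, filterByExpr by group, quasi-likelihood test, all 8 libraries, 4 residual degrees of freedom, Benjamini-Hochberg over 20477 genes). A call needed an adjusted p under 0.05 and a fold of at least 2. CPM were computed from TMM-scaled totals and divided by GENCODE M21 exon length where levels of genes were compared. The code was tested on simulated data. DESeq2 1.42.0 was an alternative. The members and lists were chosen with earlier results of these data known. Besides the members and all receptors, up to 4 called genes per list and comparison with the largest change and a mean of at least 1 CPM were eligible to be named, with the 3 genes closest to each member and cluster neighbours; not every eligible gene is printed, and 1 receptor is not reported here. Of the 30 other chemokines, 27 had a symbol with a single row. Lower depth at about 200 counts limits Il6 most, since 1 CPM was 19.3 to 30.0 reads. P-values rest on the spread between the 2 libraries of a group, pooled over all 4 groups. In edgeR each gene's spread was also drawn toward a trend over all genes tested. A p-value of RA vs Veh therefore also depends on the NR and NRRA libraries and on other genes. The very small p-values rest on this sharing and not on the 2 libraries of a group alone. The spread between the 2 libraries was largest for Veh, at a chi-square per gene of 3.93, beside 2.12 (RA), 1.73 (NRRA) and 1.58 (NR). The pooled value may thus understate the spread of Veh, the baseline of RA vs Veh, NR vs Veh and NRRA vs Veh.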

Additional observations from a re-analysis of the deposited data

Results flagged for a closer look

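Of the members, 5 were picked out because the response to RA under nutrient restriction differed from that in complete medium by a test of the difference itself (edgeR's quasi-likelihood test of the interaction, adjusted p under 0.05). The differences on the log2 scale were 0.78 for Csf1, -1.09 for Il6, -0.58 for Cxcl1, -0.39 for Cx3cl1 and -0.30 for Ccl2. For Csf1 the responses had opposite signs (-0.65 and 0.13), for Il6 the response in complete medium was -0.14 and did not pass the test, and for the other 3 both responses were negative. The difference of Cx3cl1 did not pass without RA replicate 1 or NRRA replicate 2 (edgeR adjusted p = 0.079 and 0.069). Each group has 2 libraries, too few to look for a single library that stands apart.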

How the results depend on the processing

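Over all members, comparisons and alternatives, 803 of 830 single values kept their direction and their side of the threshold. DESeq2's size factors in edgeR, no filter on low counts, DESeq2, a fit of only the compared groups (not run for the interaction, which compares all groups) and a replicate block changed the call of no member in any comparison. The replicate numbers did not pair the libraries (correlations of deviations from the group means between -0.07 and 0.07 over 16649 genes), and with the replicate block the members called remained 2 in RA vs Veh. With no fold threshold 8 members passed in RA vs Veh and in NRRA vs RA, 9 in NR vs Veh, in NRRA vs Veh and in NRRA vs NR, and 5 in the interaction; over all genes 8837 passed in RA vs Veh, 8985 in NR vs Veh, 12051 in NRRA vs Veh, 8888 in NRRA vs NR, 8254 in NRRA vs RA and 2652 in the interaction. DESeq2 called 287 genes in the interaction, where edgeR called 459, and the cause was not tested.

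Scaling to the fibroblast total shifts all genes of a library by construction. It left 1 member called in RA vs Veh and 1 in NRRA vs NR, ended the call of Il6 in NR vs Veh (0.45), and added calls of Csf1 in NR vs Veh (-1.03) and of Ccl2 in NRRA vs Veh (-1.20) and NRRA vs RA (-1.18). Over all genes it called 2394 genes in RA vs Veh (2050 higher and 344 lower, against 970 and 564), 4128 in NR vs Veh (374 and 3754, against 1092 and 606) and 3933 in NRRA vs RA (350 and 3583, against 944 and 753). In NRRA vs Veh it gave 1131 higher and 2338 lower, against 2030 and 1233, and in NRRA vs NR 1882 and 557, against 933 and 848. Turned by it were Ccl5 (0.0021), Ccl7 (0.035), Cxcl12 (0.030) and Il6 (0.18) in RA vs Veh, Cxcl1 (-0.25) and Cx3cl1 (-0.037) in NR vs Veh, Ccl5 (0.15) in NRRA vs NR, and Il6 (-0.64), Csf1 (-0.24) and Cx3cl1 (-0.43) in NRRA vs RA.

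Leaving out each library in turn left 2 members called in RA vs Veh, 4 in NR vs Veh, 3 in NRRA vs NR, 3 to 4 in NRRA vs Veh and NRRA vs RA, and 0 to 1 in the interaction, where the 0 came without RA replicate 2. The genes called over all ranged from 1255 to 1534 in RA vs Veh, 1584 to 1705 in NR vs Veh, 3029 to 3266 in NRRA vs Veh, 1628 to 1809 in NRRA vs NR, 1540 to 1696 in NRRA vs RA and 351 to 520 in the interaction. Values near 0 that turned were Ccl7 in NR vs Veh (from -0.095 to 0.11, with 0.11 without Veh replicate 2 and 0.021 without NR replicate 2), Lif in NRRA vs NR (from -0.012, without NR replicate 1, to 0.044), Il6 in NRRA vs RA (from -0.047 to 0.19, with -0.047 without RA replicate 1 and -0.024 without NRRA replicate 2), and the interactions of Ccl5 (from -0.0010, without NRRA replicate 1, to 0.27) and Ccl7 (from -0.20 to 0.0095, the latter without Veh replicate 1).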

Other observations

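Chemokines outside the 10 members included larger responses to nutrient restriction. Of 27 other chemokines with a single row, 20 were tested, of which 7 rose and 2 fell between Veh and NR and 2 rose and 2 fell between Veh and RA, where 5.33% of all genes rose and 2.96% fell with NR and 4.74% rose and 2.75% fell with RA. The fibroblast marker total lowers every NR vs Veh value by 0.69. Cxcl10, an interferon-induced ligand of Cxcr3, was at 34.5 and 27.9 CPM in Veh, 34.4 and 27.5 CPM in RA, 158 and 140 CPM in NR, and 170 and 192 CPM in NRRA, and rose with nutrient restriction without RA (log2 change 2.25, edgeR adjusted p = 2e-17) and with RA (2.57, edgeR adjusted p = 4.5e-19). Cxcl9, its relative, was at 3.12 and 2.501 CPM in Veh and 32.0 and 35.5 CPM in NR (3.58, edgeR adjusted p = 1.3e-18). Ccl20, with 7 and 1 counts in the Veh libraries, had 76 and 85 counts in NR and 261 and 321 counts in NRRA.

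Of 31 other cytokines 26 were tested, of which 1 rose and 5 fell between Veh and NR and 2 rose and 3 fell between Veh and RA, beside the shares of all genes just given. The alarmin Il33 was at 124 and 143 CPM in Veh, 183 and 173 CPM in RA, 10.2 and 8.85 CPM in NR, and 13.7 and 14.3 CPM in NRRA, and fell with nutrient restriction (log2 change -3.81, edgeR adjusted p = 5.7e-23). Il11, another gp130 ligand, fell as Lif did, from 26.0 and 27.9 CPM in Veh to 3.13 and 2.73 CPM in NR (-3.21, edgeR adjusted p = 6.2e-17). Kitl, the ligand of the spermatogonial receptor Kit, rose with RA in complete medium (1.42, edgeR adjusted p = 6.9e-14), and its interaction was -1.05 (edgeR adjusted p = 7.1e-08).

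Markers of other cell types were low or mixed. The 8 endothelial markers summed to 28.2 to 58.4 CPM, and between Veh and NR 3 rose and 2 fell, where 5.33% of all genes rose and 2.96% fell. The 9 lymphocyte markers summed to 3.08 to 6.24 CPM and the 9 testis somatic cell markers to 22.4 to 55.1 CPM. Of 11 germ cell markers 1 fell between Veh and RA, Zbtb16 (-2.36), where 2.75% of all genes fell. Of 13 macrophage markers tested 2 rose between Veh and NR, Ptprc (1.36) and Fcgr1 (1.07), where 5.33% of all genes rose.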
